A study of Mus musculus with 24 samples.

Results

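The angiopoietins and Tie receptors were followed here through 4 genes, Angpt1, Angpt2, Tek and Tie1, which were taken by gene symbol from the 55401 genes counted in each tumor and not by any measured value. RNA was sequenced from 24 mouse tumors. All hosts were male C57/BL6 mice aged 8 to 10 weeks, and all tumors grew from TC2Ras, a prostate adenocarcinoma line made from TRAMP-C2 cells with lentiviruses that carry activated H-Ras and the mouse androgen receptor. In the subcutaneous (SC) model, tumors were taken 1 week after implantation from mice whose muscle received a plasmid with IL-27 (n = 2) or the empty plasmid (control, n = 2), delivered with ultrasound. In the intratibial model, luciferase-labelled TC2Ras-Luc cells were placed in the tibia, the same kinds of plasmid were delivered to leg muscle, and the mice were gavaged daily for 2 weeks with the kinase inhibitor cabozantinib (cabo) or its polyvinylpyrrolidone vehicle. This gave control (empty plasmid and vehicle), IL-27 (vehicle), cabo (empty plasmid) and IL-27+cabo groups. Each had 3 tumors at day 14 (D14) and 2 tumors at the ethical endpoint (EOS), at which each animal's time since its last dose is not given. Every group thus carried a sonoporated plasmid, and the IL-27 came from muscle, not from the tumor cells.

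Angiopoietins are secreted ligands of TIE2, the receptor tyrosine kinase encoded by Tek. Angpt1, made mainly by mural and other stromal cells, activates TIE2 and keeps vessels quiet and tight, whereas Angpt2, which endothelial cells store in Weibel-Palade bodies and release on activation, mostly opposes it and loosens vessels, and tumors with active angiogenesis usually express it. Tie1 is an endothelial receptor that was long called an orphan because angiopoietins do not bind it on its own, and it modulates TIE2 in the same complexes. TIE2 is among the kinases that cabozantinib is known to inhibit, along with MET and VEGF receptor 2.

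On GRCm38 with the GENCODE M21 annotation, Angpt1 (ENSMUSG00000022309) spans chr15:42424723-42676977 and Angpt2 (ENSMUSG00000031465) spans chr8:18690263-18741562, both on the minus strand. Both receptor genes are on chromosome 4. Tek (ENSMUSG00000006386) spans chr4:94739289-94874976 on the plus strand, and Tie1 (ENSMUSG00000033191) spans chr4:118471191-118490061 on the minus strand. The merged exons are 5205, 3690, 4712 and 4917 bases long for Angpt1, Angpt2, Tek and Tie1. The GC content of the longest transcript is 39.3% for Angpt1, 47.2% for Angpt2, 47.1% for Tek and 57.6% for Tie1. An antisense gene, Gm17473, shares 737 exonic bases with Angpt1 on the opposite strand, and its level was between 0 and 0.0688 CPM (gene counts scaled to a common library size) in the intratibial tumors. Angpt2 lies inside Mcph1 on the opposite strand and shares 0 exonic bases with it, and Mcph1 was at 21 to 48.8 CPM there. The libraries were stranded, but whether the counting used strand is not given in the sources used here.

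The RefSeq promoter windows of the receptor genes (GRCm38.p6, the 250 bases before the transcription start that the window table uses) are shown because the 2 receptor genes gave different results with cabo at D14. Only the bases in front of the first base that GENCODE or RefSeq annotates as the gene are printed; for Tek the RefSeq gene record begins at base 94739086, ahead of the GENCODE start given above. The capitals mark matches to GGAA, the core of motifs bound by ETS factors, which drive many endothelial genes, on either strand (TTCC when read on the other strand). The stretches are chr4:94739039-94739085 on the plus strand and chr4:118490062-118490099 on the minus strand.
Tek: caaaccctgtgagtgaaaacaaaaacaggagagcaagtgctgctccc
Tie1: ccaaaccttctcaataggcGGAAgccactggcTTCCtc
In the 250 bases before each start, GGAA matched at 2 positions for Tek and at 7 for Tie1, and most of each of these windows lies inside the gene as GENCODE or RefSeq draws it. The motif is common: 93.4% of 32851 promoter windows of that length hold it, with a median of 3 matches, and 3.8% of them hold at least 7. A match is a description of letters and not of a bound site.

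The libraries held 63729005 to 83782258 counts on genes. Subcutaneous and intratibial libraries were normalized apart, so levels are not compared between them. The vessel content was followed with 15 endothelial markers such as Pecam1, Cdh5 and Emcn, which were all detected in each of the 10 groups. Of 8 osteoblast markers, 4 to 7 were detected in each intratibial group, with summed levels of 45.9 to 104 CPM, and Bglap and Bglap2, which encode osteocalcin, were at 0 in every library of 7 of the 8 groups. Skeletal muscle markers differed between groups. Their summed level was 44.7 to 200 CPM in D14 control tumors, 65.9 to 2310 CPM in D14 IL-27 tumors, 1200 to 1940 CPM in D14 cabo tumors and 1590 to 5120 CPM in D14 IL-27+cabo tumors. One D14 IL-27+cabo library (mouse 20) correlated with its 2 group mates at r = 0.963, while those 2 correlated at 0.988.

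All 4 genes passed the filter on low counts in every comparison. Per kilobase of exon over the 20 intratibial tumors, Angpt2 had the highest median level, 5.72 CPM per kb, followed by Tie1 with 3.64, Tek with 0.894 and Angpt1 with 0.487. Behind these lie 81 to 596 counts per tumor for Angpt1, 423 to 2932 for Angpt2, 164 to 872 for Tek and 345 to 3005 for Tie1. The abundant pair was thus the context-dependent ligand and the receptor once called an orphan, and the pair of lower level was the activating ligand and the receptor that binds it.

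**Figure D1:**
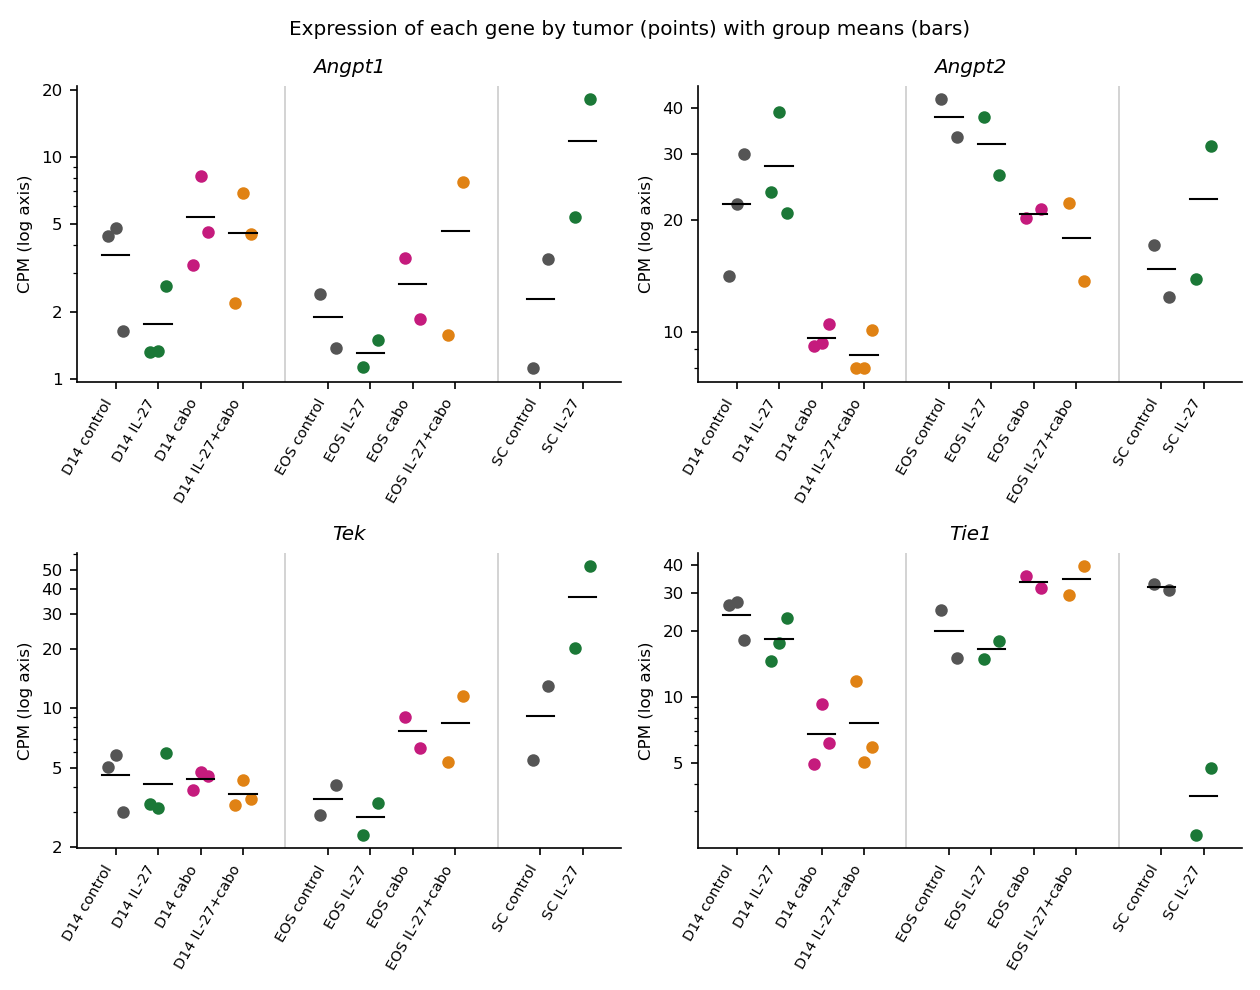
CPM of Angpt1, Angpt2, Tek and Tie1 (log axis, each panel with its own range) in each of 24 tumors, by group; points are tumors, bars are group means, and colours mark the treatment. At D14 the 6 cabo-treated tumors sit at 7.98 to 10.5 CPM of Angpt2 and 4.92 to 11.9 CPM of Tie1, below all 6 vehicle-treated tumors, while Tek overlaps; SC levels are on their own normalization.

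The question of the D14 groups was what IL-27, cabo and their combination did to the bone tumors. Angpt2 and Tie1 were lower with cabo, and neither Angpt1 nor Tek was called. The CPM values of Angpt2 were 14.1, 22.1 and 30.1 in the control tumors, and 9.15, 9.33 and 10.5 in the cabo tumors. With the IL-27 plasmid they were 20.8, 23.8 and 39 without cabo and 7.98, 7.98 and 10.1 with it. Every cabo-treated tumor was thus below every vehicle-treated tumor, and the cabo groups were also the tighter ones, with group means of 9.66 ± 0.728 (SD, n = 3) for cabo and 8.68 ± 1.22 for IL-27+cabo against 22.1 ± 7.98 for control and 27.9 ± 9.75 for IL-27. Fitted over both plasmids, 6 tumors against 6, Angpt2 was 2.71-fold lower with cabo (log2 fold change -1.44, SE 0.22, edgeR adjusted p = 0.00942).

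Tie1 was also lower in every cabo-treated tumor. Its CPM values were 18.2, 26.3 and 27.1 in the control tumors and 14.7, 17.7 and 23.1 in the IL-27 tumors. They were 4.92, 6.13 and 9.26 in the cabo tumors and 5.05, 5.88 and 11.9 in the IL-27+cabo tumors, where the highest value belonged to mouse 20. The vehicle and cabo ranges did not overlap, as for Angpt2 and 2.67% of all genes tested. Over both plasmids Tie1 was 2.91-fold lower (log2 fold change -1.54, SE 0.26, edgeR adjusted p = 0.0187). Leaving out the cabo tumor of mouse 21 or of mouse 27 gave adjusted p = 0.0576 and 0.0615 at log2 fold changes of -1.43 and -1.48, whereas the call of Angpt2 held without each of the 12 tumors in turn. In this comparison 2 of the 4 genes were called, beside 0.895% of all 19899 genes tested.

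Tek, the receptor of both ligands, was not called with cabo at D14. Its CPM values were 2.98, 5.03 and 5.79 in control tumors, 3.13, 3.26 and 5.98 in IL-27 tumors, 3.88, 4.56 and 4.79 in cabo tumors, and 3.24, 3.47 and 4.34 in IL-27+cabo tumors. The groups overlapped throughout, and the log2 fold change over both plasmids was -0.11 with an SE of 0.22 (edgeR adjusted p = 0.897). Angpt1 was the only one of the 4 with a higher mean under cabo, but with a wide spread. It measured 1.64, 4.42 and 4.77 CPM in control tumors, 1.33, 1.34 and 2.64 in IL-27 tumors, 3.28, 4.58 and 8.2 in cabo tumors, and 2.21, 4.49 and 6.91 in IL-27+cabo tumors. The ranges overlapped, and the log2 fold change of 0.95 (SE 0.38) did not pass edgeR's test (adjusted p = 0.303).

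In the pairwise comparison of cabo with control, Tie1 was called with a log2 fold change of -1.81 (SE 0.26, edgeR adjusted p = 0.0207), which is 3.51-fold lower. Angpt2 was 2.28-fold lower and just missed the threshold (log2 fold change -1.19, SE 0.25, adjusted p = 0.065). So 1 of 4 genes was called, beside 1.89% of all genes tested. The Tie1 call was lost without the cabo tumor of mouse 21 (adjusted p = 0.0647) or of mouse 27 (0.108), and Angpt2 was called without the control tumor of mouse 3 (adjusted p = 0.0121), which had the lowest control level. DESeq2 called both Angpt2 and Tie1, beside 7.71% of all genes.

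IL-27+cabo was set against control, cabo alone and IL-27 alone. Against control, 0 of 4 genes were called by edgeR, beside 0.064% of all genes, although 2 of 4, Angpt2 and Tie1, had an unadjusted p under 0.05 (6.2% of all genes did), and DESeq2 called the same 2 and 1.99% of all genes. The log2 fold changes were -1.33 (SE 0.33) for Angpt2 and -1.61 (SE 0.41) for Tie1, both with an edgeR adjusted p of 0.327. Without mouse 20, the library that stood apart, Tie1 was at -2.12 and was called (adjusted p = 0.017). Against IL-27 alone, edgeR called 0 of 4 genes and 0% of all genes, 3 of 4 genes (Angpt1, Angpt2 and Tie1) and 4.85% of all genes had an unadjusted p under 0.05, and DESeq2 called Angpt2 alone of the 4 and 0.53% of all genes. The values were 1.35 (SE 0.54) for Angpt1, -1.69 (SE 0.33) for Angpt2 and -1.29 (SE 0.41) for Tie1 on the log2 scale. Against cabo alone, edgeR and DESeq2 called 0 of 4 genes, beside 0% and 0.0103% of all genes. An unadjusted p under 0.05 was found for 0 of 4 genes and 1.92% of all genes. All 4 differences there were between -0.24 and 0.2 on the log2 scale, with SEs of 0.21 to 0.51. These comparisons share tumors, so they are not independent of each other.

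The IL-27 plasmid alone gave no call at D14. Against control, edgeR and DESeq2 called 0 of 4 genes, beside 0% and 0.0104% of all genes. Again 0 of 4 had an unadjusted p under 0.05, beside 2.76% of all genes. Angpt1 had the largest difference of the 4, -1.02 on the log2 scale with an SE of 0.48, and 2 of the 3 IL-27 tumors (1.33 and 1.34 CPM) lay below all control tumors. Over both drugs, 6 tumors against 6, the differences were -0.63 (SE 0.38) for Angpt1, 0.1 (SE 0.21) for Angpt2, -0.2 (SE 0.22) for Tek and -0.09 (SE 0.26) for Tie1. Here too 0 of 4 genes were called by edgeR or DESeq2, while edgeR called 0% and DESeq2 0.00983% of all genes. None of the 4 had an unadjusted p under 0.05, as 3.53% of all genes had. The test of whether IL-27 altered the change with cabo, the interaction term, called 0 of 4 genes with either tool, beside 0% of all genes with edgeR and 0.00967% with DESeq2. At an unadjusted p under 0.05 were 0 of the 4 and 1.88% of all genes. The interaction was -0.5 (SE 0.42) for Angpt2 and 0.54 (SE 0.51) for Tie1 on the log2 scale.

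**Figure D2:**
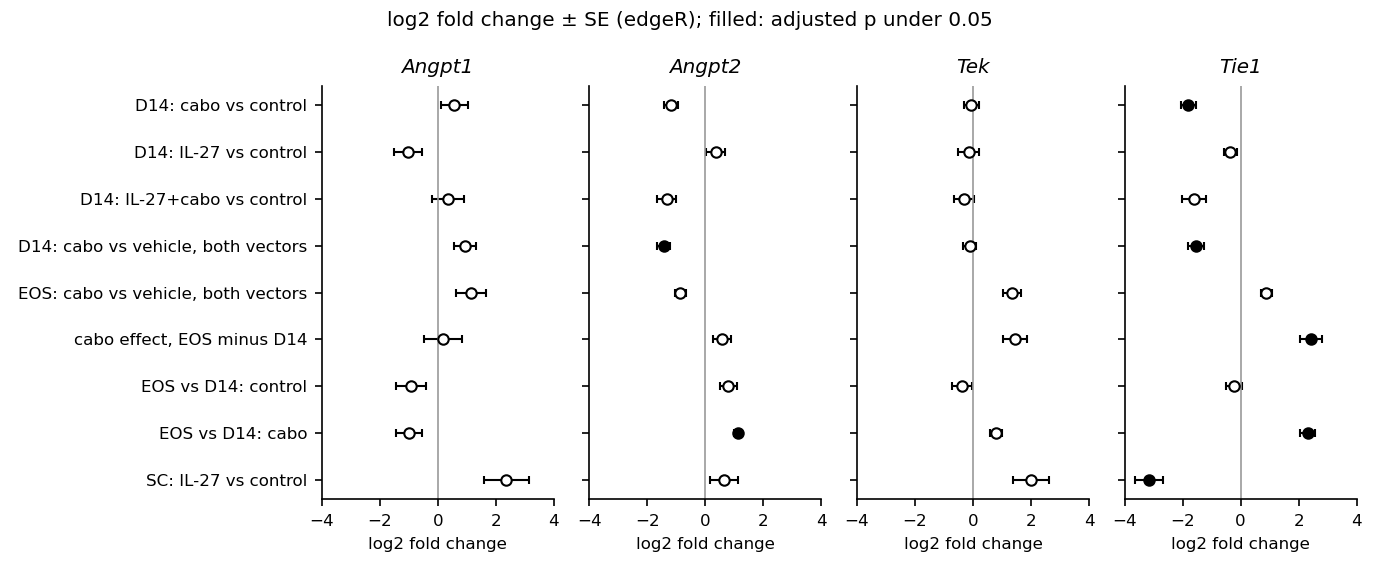
log2 fold changes of the 4 genes in 9 comparisons, with bars of 1 SE from edgeR; filled points have an adjusted p under 0.05. Tie1 is below 0 with cabo at D14 and above 0 at EOS, and it is the one member that edgeR called in the difference of the cabo effect between times (log2 difference 2.43).

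At EOS the tumors of the cabo groups had the highest Tie1, not the lowest. The summed skeletal muscle markers were also higher there, at 148 to 999 CPM in the 4 cabo-treated tumors and 48.5 to 88 CPM in the 4 vehicle-treated tumors. These markers and the drug cannot be told apart there. The paper also reports longer survival with cabo and with IL-27+cabo than in controls. The drug and the time of harvest thus cannot be told apart at EOS either. The Tie1 CPM values were 31.7 and 35.6 in cabo tumors and 29.2 and 39.8 in IL-27+cabo tumors, against 15.1 and 25 in control tumors and 15 and 18.1 in IL-27 tumors. Tek had the same pattern, with 6.29 and 9 CPM in cabo tumors and 5.35 and 11.6 CPM in IL-27+cabo tumors, against 2.89 and 4.08 in control tumors and 2.29 and 3.33 in IL-27 tumors. Both receptors were thus higher in all 4 cabo-treated tumors than in all 4 vehicle-treated tumors, a lack of overlap in either direction that 10.7% of all genes tested also had. Angpt2 remained on the other side, with 20.2 and 21.4 CPM in cabo tumors and 13.7 and 22.2 in IL-27+cabo tumors, below the 33.4 and 42.1 of control tumors and the 26.4 and 37.7 of IL-27 tumors. Angpt1 overlapped, at 1.88 and 3.51 CPM in cabo tumors, 1.59 and 7.73 in IL-27+cabo tumors, 1.39 and 2.43 in control tumors and 1.13 and 1.5 in IL-27 tumors.

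These EOS differences did not pass edgeR's adjusted threshold. Over both plasmids, 4 tumors against 4, the log2 fold changes with cabo were 0.89 (SE 0.19) for Tie1, 1.35 (SE 0.3) for Tek, -0.86 (SE 0.18) for Angpt2 and 1.15 (SE 0.53) for Angpt1, with edgeR adjusted p-values of 0.111, 0.118, 0.114 and 0.337. With the skeletal muscle mean as a covariate the values were 1.27 for Tie1, 1.41 for Tek, -0.84 for Angpt2 and 2.33 for Angpt1. Their edgeR adjusted p-values were 0.783 to 0.791. With the endothelial marker mean instead they were 0.15 for Tie1, 0.73 for Tek, -0.61 for Angpt2 and -1.06 for Angpt1. The edgeR adjusted p-values were then 0.715 to 0.885. Every endothelial marker was above 0 in the fit without a covariate, with a median of 0.69. The endothelial mean was 3.55 to 4.1 with cabo and 2.79 to 3.53 with vehicle. The drug and the endothelial level thus cannot be told apart at EOS. Without a covariate, edgeR called 0 of 4 genes and 0% of 20026 genes. There 3 of 4 genes (Angpt2, Tek and Tie1) had an unadjusted p under 0.05, as had 16.2% of all genes. DESeq2 called those 3 and 6.27% of all genes. In the pairwise EOS tests, edgeR again called 0 of 4 genes and 0% of all genes for cabo, for IL-27+cabo and for IL-27 against control. The number of the 4 with an unadjusted p under 0.05 was 3 for cabo, 3 for IL-27+cabo and 0 for IL-27, beside 8.9%, 14.2% and 3.25% of all genes. DESeq2 called 0, 1 (Angpt2) and 0 of the 4, beside 1.14%, 4.19% and 0.141% of all genes. The IL-27 differences at EOS were between -0.54 and -0.24 on the log2 scale, with SEs of 0.26 to 0.7.

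The change of Tie1 with cabo differed between D14 and EOS when the difference was itself tested over all 20 intratibial tumors. The cabo effect on Tie1 was higher at EOS by 2.43 on the log2 scale (SE 0.37, edgeR adjusted p = 0.00506), and this call held without each of the 20 tumors in turn. For Tek the difference was 1.45 (SE 0.4, adjusted p = 0.245), for Angpt2 0.56 (SE 0.31, adjusted p = 0.733) and for Angpt1 0.18 (SE 0.66, adjusted p = 1). So 1 of 4 genes was called by edgeR, beside 0.292% of all genes, and DESeq2 called Tek as well (adjusted p = 0.026), beside 1.33% of all genes. The same test called 5 of the 15 endothelial markers, all higher. With their mean as a covariate the Tie1 difference was 0.18 (edgeR adjusted p = 0.955), and that fit called 0 of 21563 genes. Tie1 followed that mean closely (r = 0.97 over the 20 tumors), so this fit cannot tell the Tie1 difference and the endothelial level apart.

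Within a treatment, EOS was compared with D14. In the cabo groups Tie1 rose 4.97-fold (log2 fold change 2.31, SE 0.25, edgeR adjusted p = 0.0109) and Angpt2 rose 2.16-fold (1.11, SE 0.11, adjusted p = 0.00959), so 2 of 4 genes were called beside 2.09% of all genes. Tek was at 0.8 (SE 0.21, adjusted p = 0.121) and Angpt1 at -0.99 (SE 0.45, adjusted p = 0.318). DESeq2 called Tek too (0.79, adjusted p = 0.0192), so 3 of 4 genes beside 9.13% of all genes. Both calls depended on single tumors: without the EOS cabo tumor of mouse 23 the adjusted p was 0.057 for Tie1 and 0.0636 for Angpt2, and without the D14 cabo tumor of mouse 21 it was 0.0646 for Angpt2. In the IL-27+cabo groups the log2 values were 2.15 (SE 0.49) for Tie1, 1.18 (SE 0.45) for Tek and 1.03 (SE 0.36) for Angpt2, with 0 of 4 genes and 0% of all genes called by edgeR, 3 of 4 and 3.83% of all genes at an unadjusted p under 0.05, and Tie1 alone of the 4 and 1.52% of all genes called by DESeq2. In the control groups edgeR and DESeq2 called 0 of 4 genes, beside 0.104% of all genes by edgeR and 3.95% by DESeq2. Angpt2 alone of the 4 had an unadjusted p under 0.05 there, as had 13.1% of all genes, with a log2 value of 0.79 (SE 0.29), while Tie1 was at -0.24 (SE 0.27). In the IL-27 groups 0 of 4 genes were called by edgeR or DESeq2, while edgeR called 0% and DESeq2 0.585% of all genes. At an unadjusted p under 0.05 were 0 of the 4 and 5.05% of all genes. Tie1 was at -0.13 (SE 0.25) in that comparison.

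Ordered by group mean, the intratibial levels of Angpt2 ran from EOS control (37.8 CPM) through EOS IL-27 (32.1), D14 IL-27 (27.9), D14 control (22.1), EOS cabo (20.8) and EOS IL-27+cabo (17.9) down to D14 cabo (9.66) and D14 IL-27+cabo (8.68). Only the step from EOS IL-27+cabo to D14 cabo separated neighbours without overlap. For Tie1 the order was EOS IL-27+cabo (34.5), EOS cabo (33.6), D14 control (23.8), EOS control (20), D14 IL-27 (18.5), EOS IL-27 (16.5), D14 IL-27+cabo (7.6) and D14 cabo (6.77). Its neighbours overlapped except at 2 steps, from EOS cabo to D14 control and from EOS IL-27 to D14 IL-27+cabo. Tek ran from 8.45 CPM in EOS IL-27+cabo and 7.65 in EOS cabo to 2.81 in EOS IL-27, with 1 step free of overlap, below EOS cabo. For Angpt1, from 5.35 CPM in D14 cabo to 1.32 in EOS IL-27, all neighbours overlapped.

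In a whole tumor, fewer endothelial cells and less RNA per endothelial cell cannot be told apart, so each gene was also set against the mean log2 CPM of the 15 endothelial markers in the same tumor. That mean was 3.36 in control, 3.21 in IL-27, 2.19 in cabo and 2.39 in IL-27+cabo tumors at D14, and 3.21, 2.92, 3.86 and 3.82 in the same order at EOS. In the cabo comparison over both plasmids at D14, 4 of the 15 markers were called, all lower, beside 0.895% of all genes. They were Emcn, an endothelial sialomucin, at -2.4, Cldn5, a tight junction protein, at -2.57, Robo4 at -1.18 and Mmrn2 at -0.89 on the log2 scale. The list had a median of -0.89 against 0.04 over all genes.

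**Figure D3:**
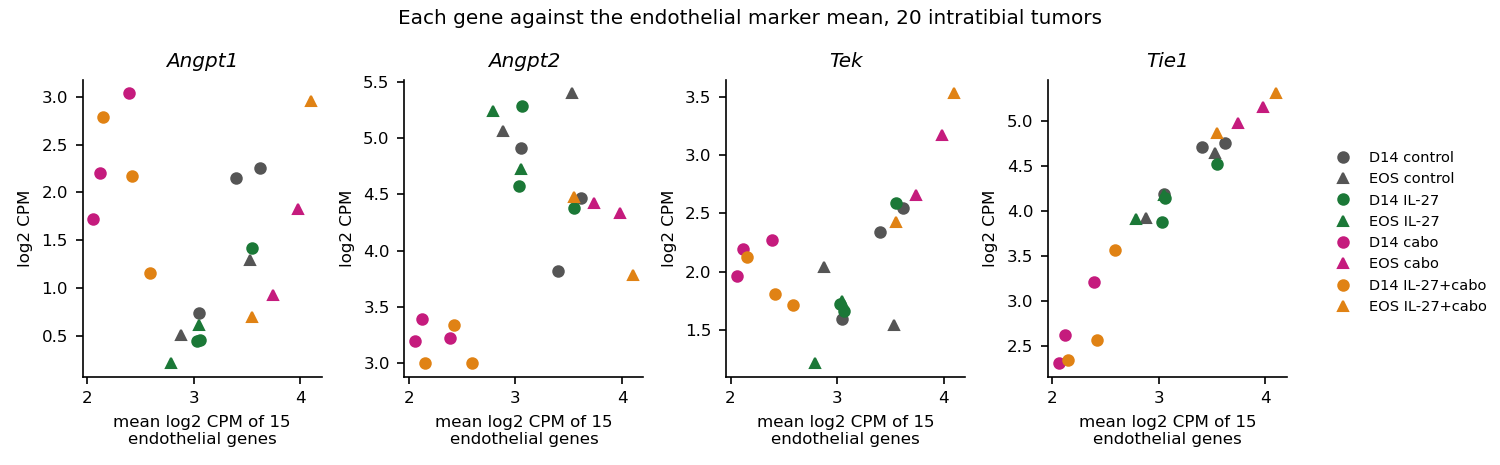
log2 CPM of each gene (vertical axes, own ranges) against the mean log2 CPM of 15 endothelial genes (horizontal axes) in 20 intratibial tumors; circles are D14, triangles EOS, colours the treatments. Tie1 lies along 1 line over both times (r = 0.97), whereas Tek, Angpt1 and Angpt2 do not.

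Tie1 tracked the endothelial mean closely, with Pearson's r of 0.97 over the 20 tumors, 0.97 over the 12 D14 tumors and 0.99 over the 8 EOS tumors. For Tek, r was 0.57 over the 20 tumors, 0.31 at D14 and 0.86 at EOS. Angpt2 had r of 0.73 at D14 and -0.76 at EOS, and Angpt1 -0.37 at D14 and 0.85 at EOS. These correlations are descriptions over tumors that share treatment groups and a normalization. With the endothelial mean as a covariate in the edgeR fit, the D14 cabo difference over both plasmids was -0.01 for Tie1 (adjusted p = 0.99) and -2.22 for Angpt2 (adjusted p = 0.0969). The covariate itself did not overlap between the D14 cabo-treated (2.06 to 2.59) and vehicle-treated tumors (3.03 to 3.62), so the drug and the endothelial level cannot be told apart there. The skeletal muscle mean was 5.46 to 7.95 with cabo and -0.97 to 6.83 with vehicle, with 1 IL-27 tumor inside the cabo range. With it as a covariate the D14 differences over both plasmids were -1.94 for Tie1 and -1.36 for Angpt2 with adjusted p-values of 0.232 and 0.648, and the EOS minus D14 difference of Tie1 was 2.47 (adjusted p = 0.00414).

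**Figure D4:**
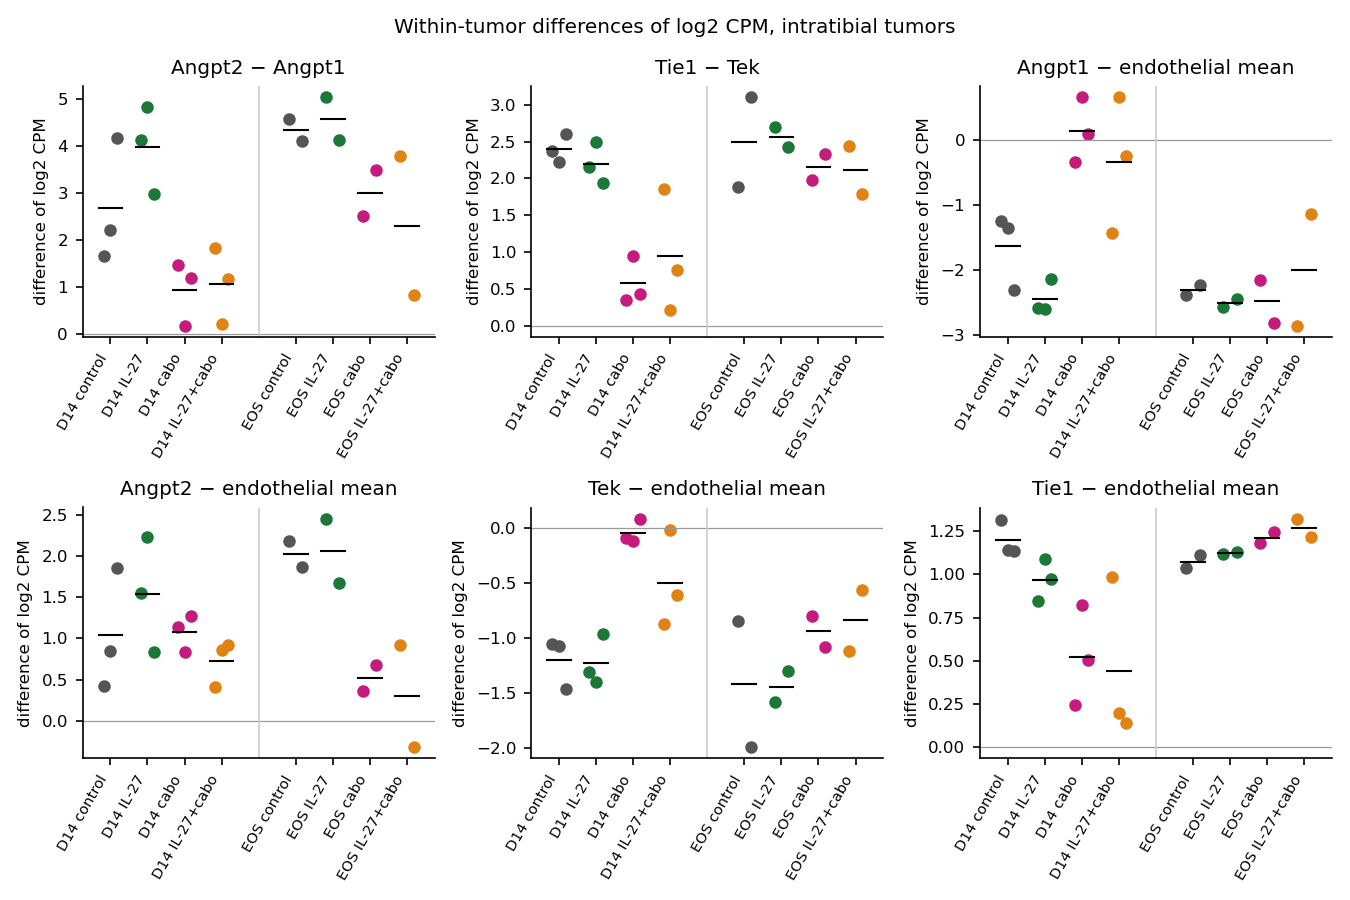
Differences of log2 CPM within each of 20 intratibial tumors (points) with group means (bars): Angpt2 minus Angpt1, Tie1 minus Tek, and each gene minus the mean of 15 endothelial markers. At D14 the cabo-treated tumors have lower Tie1 minus Tek (0.22 to 1.86) than the vehicle-treated tumors (1.94 to 2.6).

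The balance within the ligands and within the receptors was tested per tumor, with cabo and vehicle labels permuted within each plasmid group (exact two-sided permutation test, 400 permutations at D14, smallest possible p 0.005, and 36 at EOS, smallest possible p 0.0556), and p-values were adjusted over 6 quantities per time. At D14, log2 Angpt2 minus log2 Angpt1 was 3.33 ± 1.25 (SD, n = 6) in vehicle-treated tumors and 1.01 ± 0.68 in cabo-treated tumors, a difference of -2.32 (adjusted p = 0.0075 in the exact permutation test). The ranges were 1.67 to 4.83 and 0.19 to 1.84, so they overlapped slightly, at the lowest vehicle tumor and the highest cabo tumor. The difference was -1.73 with the empty plasmid and -2.9 with the IL-27 plasmid. At EOS the difference was -1.8, with the cabo-treated tumors at 0.82 to 3.78 and the vehicle-treated ones at 4.1 to 5.03, which gave the smallest p the design allows (adjusted p = 0.111 in the exact permutation test).

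The gap between the receptors narrowed. Tie1 minus Tek was 2.3 ± 0.24 (SD, n = 6) in vehicle-treated and 0.76 ± 0.61 in cabo-treated tumors at D14, without overlap (difference -1.54, adjusted p = 0.0075 in the exact permutation test). Relative to the endothelial mean, Tek was higher with cabo by 0.94 and Angpt1 by 1.94 (both adjusted p = 0.0075), Tie1 was lower by 0.6 (adjusted p = 0.018) and Angpt2 differed by -0.38 (adjusted p = 0.295), all in exact permutation tests. That mean was itself lower with cabo, without overlap, so a gene that cabo left unchanged would also come out higher relative to it. The log2 fold change of Tek itself was -0.11 (SE 0.22, edgeR adjusted p = 0.897). The Angpt2 difference was 0.04 with the empty plasmid and -0.8 with the IL-27 plasmid. The Tek values were -0.88 to 0.08 with cabo and -1.46 to -0.97 with vehicle, with no overlap, and the Tie1 values were 0.14 to 0.98 with cabo and 0.85 to 1.32 with vehicle, with overlap. With the median of the list in place of its mean, Tie1 differed by -0.38 (adjusted p = 0.084 in the exact permutation test). At EOS, Tie1 minus Tek was 2.13 ± 0.3 (SD, n = 4) with cabo and 2.53 ± 0.51 with vehicle, and the Tie1 minus endothelial values were 1.18 to 1.32 with cabo and 1.03 to 1.13 with vehicle. Angpt2 minus endothelial was -0.32 to 0.92 with cabo and 1.67 to 2.45 with vehicle. No EOS quantity could pass 0.05 in this design, and 0 of 6 did, with adjusted p-values of 0.111 to 0.889 in the exact permutation test.

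The other genes of the pathway were read from fixed lists. Of the 9 TIE2 adaptors and downstream docking proteins, such as Dok2, Grb2 and Pik3r1, 0 were called with cabo at D14 over both plasmids. Of all genes, 0.895% were called in that comparison. The adaptor list had a median of -0.02 against 0.04 over all genes. Of 6 tested ligand modulators and angiopoietin-binding integrins, 0 were called. Ptprb, the phosphatase that opposes TIE2, was at 0.42 (SE 0.28) and Svep1, an extracellular protein that binds Tie1, at 1.13 (SE 0.5) on the log2 scale. Of the 4 effectors, Akt1, Foxo1, Nos3 and Klf2, 1 was called: Nos3, the endothelial nitric oxide synthase, fell by 1.27 on the log2 scale (SE 0.21, edgeR adjusted p = 0.015). Of the 7 transcription factors that act on these genes or respond to hypoxia, 0 were called. Foxo1, a factor that TIE2 signaling restrains and that acts on Angpt2, was at 0 (SE 0.19). An unadjusted p under 0.05, which 12.5% of all genes had, was reached by Svep1 and the factor Ets1 (-0.53, SE 0.18) in the 3 lists without a call.

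Angpt2 is known as a gene of endothelial tip cells, the leading cells of sprouts. Of 7 other tip cell genes, 3 were called with cabo over both plasmids at D14, all lower, beside 0.895% of all genes: Esm1, an endothelial proteoglycan, at -5.02 (SE 0.4), Dll4, a Notch ligand, at -3.3 (SE 0.19) and Nid2, a basement membrane nidogen, at -1.43 (SE 0.29) on the log2 scale. The list had a median of -1.38 and 7 of 7 genes below 0. Of 2 genes of the Weibel-Palade bodies that store Angpt2, 0 were called by edgeR over both plasmids and 0 had an unadjusted p under 0.05: Selp was at 0.6 (SE 0.34) and Vwf at 0.17 (SE 0.47), and in cabo against control Selp rose by 1.34 (SE 0.24, edgeR adjusted p = 0.0417). Between D14 and EOS in the cabo groups, 3 of 7 tip cell genes were called higher (Esm1 by 4.56, Dll4 by 3.47 and Nid2 by 2.2), with 6 of the 7 above 0, Nos3 rose by 1.95 (adjusted p = 0.0172), and 9 of 15 endothelial markers were called higher, where 2.09% of all genes were called. The median over all 15 markers, each of them above 0, was 1.56. Of the other pathway lists, the factor Ets1 rose by 0.4 (SE 0.07) on the log2 scale. The adaptor Grb7, which had no count in the EOS cabo tumors, was called lower. The test of the difference between times called Nos3 (1.93, SE 0.34), Dll4 (3.93, SE 0.31) and Esm1 (3.95, SE 0.53) along with Tie1. Mural cells are the usual source of Angpt1. Of 12 mural markers, 2 were called with cabo at D14, Kcnj8 (-2.01) and Mcam (-1.62), both lower, and the list had a median of -0.11. Between D14 and EOS in the cabo groups 3 of the 12 were called, all higher. In the difference between times 2 were called higher, beside 0.292% of all genes.

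In the SC tumors the comparison was IL-27 against the empty plasmid, and Tie1 was the one member that edgeR called. It measured 30.7 and 32.9 CPM in the control tumors and 2.33 and 4.71 CPM in the IL-27 tumors, without overlap, as for 66.5% of all genes tested. It was 8.96-fold lower (log2 fold change -3.16, SE 0.47, edgeR adjusted p = 0.00475), so 1 of 4 genes was called beside 20% of all 19360 genes tested, a share near which a count of 1 in 4 is no result about these genes. Tek was at 5.49 and 12.9 CPM in the control tumors and 20.2 and 52.5 CPM in the IL-27 tumors, which gave a log2 fold change of 2 (SE 0.61, adjusted p = 0.0615). Angpt1 was at 1.12 and 3.49 CPM in control tumors and 5.36 and 18.1 CPM in IL-27 tumors, with a log2 fold change of 2.36 (SE 0.78, adjusted p = 0.0777). Angpt2, at 12.4 and 17.2 CPM in control tumors and 13.8 and 31.6 CPM in IL-27 tumors, overlapped (0.63, SE 0.48, adjusted p = 0.385).

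The SC values rest on 2 tumors a group, which are not stated to come from different mice, and the calls there moved with the processing. Of the 3880 genes called in this comparison, 3198 were lower in the IL-27 tumors. After correction for GC content and length, fitted library by library, the difference of Tie1, the member with the highest GC content, was -0.82 (adjusted p = 0.284). DESeq2 called Angpt1 and Tek as well as Tie1, beside 29.3% of all genes. Leaving out 1 tumor in turn left 1 tumor in its group. The log2 fold change then ranged from 1.22 to 3.38 for Angpt1, from 1.14 to 2.71 for Tek and from -3.77 to -2.75 for Tie1. The summed skeletal muscle markers were at 444 to 1220 CPM in the IL-27 tumors and 55.6 to 103 CPM in the control tumors, and 2 of the 15 endothelial markers were called, both lower (Cldn5 at -2.84 and Eng, a co-receptor of the TGF-beta family, at -2.57). The part of muscle RNA in the SC differences was not tested. Of the pathway genes, 1 of 6 ligand modulators (Itga5, -2.41), 1 of 8 adaptors (Dok2, -4.12), 3 of 4 effectors, among them Akt1 (-4.39) and Nos3 (-4.26), and 1 of 7 transcription factors (Gata2, -3.36) were called, all lower, where 20% of all genes were called and 3198 of those 3880 were lower.

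The genes whose log2 CPM was most like that of each member over the 20 intratibial tumors were ranked by Pearson's r among 21563 genes, as a description of tumors that share groups. For Tie1 the 5 highest were Prrg3 (0.964), Wscd1 (0.959), Emcn (0.957), Sema3f (0.955) and Robo4 (0.953), of which Emcn and Robo4 are endothelial markers. For Tek they were Itgax (0.817), an integrin of dendritic cells and macrophages, Mblac2 (0.814), Aplnr (0.805), the apelin receptor, Eng (0.798) and Palmd (0.798). For Angpt1 they were Irf1 (0.936), Irgm2 (0.931), Il15ra (0.927), Slfn8 (0.926) and Parp12 (0.926), which are known as interferon-responsive genes. For Angpt2 they were Sord (0.92), Sugp1 (0.914), Gpr137b (0.912), Nars (0.906) and Arhgap27 (0.904). Among the members themselves, r was -0.72 between the ligands, 0.47 between the receptors, 0.58 between Angpt2 and Tie1 and 0.56 between Angpt1 and Tek.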

How the data were processed

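RNA of 24 tumors was measured. The intratibial labels carry 20 different mouse numbers, whereas cells were injected in both flanks of SC hosts and the SC labels name no mouse. Per the study's methods, stranded poly(A) libraries were sequenced in pairs, reads were trimmed with cutadapt, checked with FastQC and aligned by HISAT2, with StringTie used for assembly and StringTie and ballgown for transcript levels. The values the authors deposited are raw counts, whole numbers for each Ensembl gene identifier. The counting program and annotation are not given in the sources used here. The submitters' processing notes list GRCh38, a human build, whereas the identifiers are of mouse genes, of which 55141 of 55401 are in GENCODE M21. Depth was 63729005 to 83782258 counts, and a share of the low counts were multiples of 4, so counting error may exceed what the counts imply. Groups followed the sample labels. The p-values measure the spread between these tumors, which the labels name as separate samples. No pair of libraries within a group held identical values, and each such pair differed by more than sampling noise.

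Tests used edgeR 4.0.16 in R 4.3.3 (filterByExpr, TMM, quasi-likelihood F test, two-sided, Benjamini-Hochberg adjustment over all genes tested, call at an adjusted p under 0.05) in 18 comparisons. SE is the log2 fold change divided by the root of F. Pairs of groups were fitted alone, except that the 4 EOS groups shared 1 fit, the D14 comparisons over both plasmids or drugs used 12 tumors, and the difference between times used 20. Log2 CPM used a prior count of 2, and scores are means of log2 CPM. Scripts were tested on simulated data. Alternatives were DESeq2 1.42.0, RLE normalization, no filter, 1 fit of all intratibial tumors, muscle and endothelial scores as covariates, removal of the trend with GC content and length, counts divided by 4, a replicate block for the SC tumors, each tumor left out in turn and, for ratios, a prior count of 0.25 and the list median. The named genes are the members in every comparison, the called genes of each pathway list with the 2 smallest p per direction, and the 5 genes with the highest r for each member. Other list genes named, among them Nid2, Ptprb, Svep1, Vwf, Foxo1, Ets1 and the cell type markers, were chosen after their values were seen. The members and lists were chosen with earlier results of these data known.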

Additional observations from a re-analysis of the deposited data

Results flagged for a closer look

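The cabo effect on Tie1 differed between the times: it was higher at EOS than at D14 by 2.43 on the log2 scale in edgeR's test of the difference. The effect over both plasmids was -1.54 at D14, which was called, and 0.89 at EOS, which was not (edgeR adjusted p = 0.111). The endothelial marker mean was also lower with cabo at D14 and higher at EOS. At D14 the summed skeletal muscle markers were 1200 to 5120 CPM in the cabo-treated and 44.7 to 2310 CPM in the vehicle-treated tumors. At EOS they were 148 to 999 CPM against 48.5 to 88 CPM. The cause of the Tie1 difference was not tested. No group had the 4 or more tumors needed to look for outlying samples.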

How the results depend on the processing

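Of 1232 values of single members and ratios under the alternatives, 1129 kept their direction and side of the threshold, 22 lost a call, 25 gained one and 56 changed sign, of which 1 had been called. The causes were not tested, except that leaving out a tumor gives fewer samples; where 1 tumor was left in a group, it was assumed to vary like the other groups. For D14 cabo against control, 2 members were called with DESeq2, 0 with no filter (101 of 29107 genes) and 0 to 2 without 1 tumor. Either tissue covariate called 0 members and 0 of 18627 genes there. For cabo over both plasmids, either covariate called 0 members, beside 13 (muscle) and 1 (endothelial) of 19899 genes. Leaving out 1 tumor gave 1 to 2 members there. For IL-27+cabo against control, 2 were called with DESeq2, 1 in the fit of all 20 tumors (96 of 21563 genes) and 0 to 1 without 1 tumor. Against IL-27, 1 was called with DESeq2 and 1 in that fit (47 of 21563 genes). For EOS against D14 in cabo, 3 members were called with DESeq2, 1 in that fit (53 of 21563 genes) and 0 with either covariate. The muscle and endothelial covariates called 54 and 0 of 19144 genes there. In IL-27+cabo the counts were 1 with DESeq2 and 1 in that fit (71 of 21563 genes). DESeq2 called 1 for EOS IL-27+cabo, 3 for EOS cabo over both plasmids and 2 for the difference between times. In that last test the endothelial covariate gave 0 members and 0 of 21563 genes. The share of all genes that DESeq2 called is given above with each comparison. In the SC tumors 3 were called with DESeq2, 3 with counts divided by 4, 3 with the replicate block, 0 with GC content and length, 1 with both of these (Tek at 1.61, adjusted p = 0.0124, in place of Tie1 at -0.89, adjusted p = 0.196) and 1 to 3 without 1 tumor. The numbers of the SC libraries were not shown to pair them, since deviations of same-numbered samples correlated at 0.03 over 19360 genes.

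Signs changed with the endothelial covariate, in log2: Tek in D14 cabo against control 1.68, IL-27+cabo against control 0.41 and against IL-27 0.55, and cabo over both plasmids 0.85; Tie1 in IL-27+cabo against cabo -0.37 (-0.37 with muscle), against IL-27 0.03 and in the interaction -0.03; EOS against D14 in cabo, Tek -1.2 and Tie1 -0.96 (adjusted p = 0.719, the 1 called value); in IL-27+cabo, Angpt1 -1.79, Tek -0.16 and Tie1 -0.13; Angpt1 in EOS cabo -1.17, EOS IL-27+cabo -0.56 and EOS cabo over both plasmids -1.06; and in the difference between times, Angpt1 -3.43 and Tek -0.25. With the muscle covariate they were Tek in the interaction 0.09, EOS against D14 in IL-27 for Angpt1 0.31, Angpt2 -0.11, Tek 0.12 and Tie1 0.26, and in IL-27+cabo Angpt1 -3.5 (-0.04 with GC content and length).

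Without 1 tumor in turn, the values that changed sign ranged, for Tek, from -0.3 to 0.14 in D14 cabo against control, -0.51 to 0.05 in IL-27 against control, -0.34 to 0.2 in IL-27+cabo against IL-27, -0.31 to 0.25 in the interaction and -0.21 to 0.07 in cabo over both plasmids. For Angpt1 they ranged from -0.09 to 0.66 in IL-27+cabo against control, -0.66 to 0.22 against cabo, -1.5 to 0.77 in EOS against D14 in IL-27+cabo, -0.04 to 0.93 in EOS cabo, -0.27 to 2.01 in EOS IL-27+cabo, -0.61 to 0.54 in the difference between times and, relative to the endothelial mean at EOS, -0.26 to 0.6. For Angpt2 they ranged from -0.07 to 0.19 in D14 IL-27 over both drugs, -0.05 to 0.54 in EOS against D14 in IL-27, -0.52 to 0.02 in EOS IL-27 and -0.09 to 1.1 in the SC tumors. For Tie1 they ranged from -0.31 to 0.48 in IL-27+cabo against cabo, -0.34 to 0 in IL-27 over both drugs, -0.63 to 0.08 and -0.26 to 0.04 in EOS against D14 in control and IL-27, and -0.6 to 0.12 in EOS IL-27.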

Other observations

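The lymphatic markers, among them Flt4, the VEGF receptor of lymphatic vessels, were lower with cabo at D14. With cabo at D14 over both plasmids, 6 of 7 were called by edgeR, all lower, beside 0.895% of all genes, with a median log2 fold change of -2.16 against 0.04 over all genes: Flt4 by -3.63 (SE 0.3), Mmrn1 by -4.16 (SE 0.74), Ccl21a, a lymphatic chemokine, by -3.5 (SE 0.58), Prox1, the factor that specifies lymphatic fate, by -2.16 (SE 0.36), Lyve1 by -1.95 (SE 0.27) and Reln by -1.67 (SE 0.29). The effect of cabo on Flt4 was higher at EOS than at D14 by 3.93 (SE 0.3) and that on Mmrn1 by 4.33 (SE 0.82) in edgeR's test of the difference between times, which called these 2 of the 7 beside 0.292% of all genes. At EOS over both plasmids edgeR called 0 of 7 and 0 had an unadjusted p under 0.05, 3 were above and 4 below 0, and the median was -0.02.

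Kit, a receptor tyrosine kinase of hematopoietic stem cells, which also express Tek, fell by 1.15 on the log2 scale (SE 0.22, edgeR adjusted p = 0.0283) with cabo at D14 over both plasmids. It was the 1 called of 6 stem cell markers, beside 0.895% of all genes. Of the 6, 3 were above and 3 below 0 with a median of -0.16, so the list as a whole did not move with Kit. Kit was 1.29 higher (SE 0.23) at EOS than at D14 in the cabo groups. Pf4, a megakaryocyte gene, rose by 0.89 (SE 0.15, edgeR adjusted p = 0.0295) in cabo against control at D14. There edgeR called 1 of 3 megakaryocyte genes tested, beside 1.89% of all genes. Over both plasmids Pf4 was at 1.7 (SE 0.56, edgeR adjusted p = 0.194), with summed megakaryocyte markers of 268 CPM in mouse 20 and 32.6 to 50.8 CPM in the other 5 cabo-treated tumors. In that comparison edgeR called 0 of 3 megakaryocyte genes tested, beside 0.895% of all genes. Of the 3, 1 (Pf4) had an unadjusted p under 0.05, as had 12.5% of all genes.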
